A study of Mus musculus with 20 samples.

Results

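The insulin-like growth factors Igf1 and Igf2, the receptor Igf1r and the binding proteins Igfbp2 to Igfbp7 were followed in the femoral shaft of Hyp mice and their normal littermates. These are 9 of the 18194 genes named on the array, and all probe sets annotated to 1 of their symbols alone were taken, which gave 26 of 45101. Of these, 23 were called present on at least 5 of the 20 arrays and entered the test, and 20 were called present on every array. The 3 that were not tested were 1 of the 2 probe sets for Igf2 (1415931_at), 1 of 6 for Igfbp4 (1421991_a_at) and 1 of 3 for Igfbp7 (1437804_at), with 0, 1 and 0 present calls. Each gene kept at least 1 tested probe set, and the brightest of these stands for the gene below.

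The mice were 5 weeks old on the C57BL/6J background. Normal males, hemizygous Hyp/Y males, normal females and heterozygous Hyp/+ females were each measured on 5 arrays, and each array held pooled RNA of 2 mice of the same genotype and sex. The Hyp mutation removes part of Phex, which lies on the X chromosome and encodes a membrane peptidase made by bone-forming cells and osteocytes. It is a germline change, so it is carried by every tissue and not by bone alone. Each of the 5 series contributed an array to every group, and the 10 comparisons of a Hyp array with the normal array of the same sex and series are called pairs here. Femur shafts were cut free of their ends and rinsed with saline, so marrow was reduced and not fully removed.

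IGF1 and IGF2 are small secreted growth factors that bind the IGF1 receptor, a tyrosine kinase on the cell surface, and IGF1 drives growth of the long bones after birth. Most circulating IGF1 comes from the liver under growth hormone, while bone cells make their own for local use. The binding proteins hold IGFs in the extracellular space and proteases release them, so a binding protein can lower or prolong IGF action. The comparison asks whether RNA of this system in the shaft differs in mice that, as the Hyp strain is known for, stay small. Body size was not among the measurements used here.

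On the probe set for Phex that was present on all normal arrays, signals were 2391.3 to 5763.8 in the normal mice, 3.8 to 48.2 with no present call in Hyp males, and 356.5 to 847.2 in Hyp females (not located relative to the deletion here). The authors' signals share a trimmed mean of 500.0 on every array, and 49.3% to 56.9% of probe sets were called present. Among 8 osteoblast and osteocyte markers tested, Dmp1 and Sost fell in Hyp mice by the test below, while 1.3% of all probe sets fell. Mepe, Sp7, Alpl and Ibsp did not pass, with log2 differences of -0.75, -0.30, -0.11 and -0.09. Col1a2 and Col1a1 did not pass either, at 0.13 and 0.15. The 8 were expressed in the tissue as labelled, with Sost present on 12 and Mepe on 18 arrays and the other 6 on all 20. Skeletal muscle markers were measured too (7 of 7 tested, 0 passing), with a summed signal of 198885.2 to 385411.0 in normal males, 225840.9 to 314465.6 in Hyp males, 202541.9 to 319285.5 in normal females and 236671.4 to 416182.1 in Hyp females. The liver markers Alb, Apoa1 and Ttr were called present on at most 2 of 20 arrays by any of their probe sets. In pooled bulk tissue, fewer cells of a type and less RNA per cell cannot be told apart.

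None of the 23 member probe sets passed the test of Hyp against normal over both sexes (limma, adjusted p under 0.05 over 27141 probe sets), while 647 of all those tested did, which is 2.38%. The smallest adjusted p among the members was 0.0574, for Igfbp4. At an unadjusted limma p under 0.05, 10 member probe sets were higher in Hyp mice and 1 was lower, against 11.5% of all probe sets higher, 8.73% lower and 20.2% in either direction. An analysis of variance on the linear signals, the form of test that the authors used, called 2 member probe sets, both of Igfbp4, after the same adjustment, and 3.25% of all probe sets. The 26 probe sets fall on 9 genes, and those of 1 gene are annotated to it alike and read the same arrays, so they are not separate observations. By their brightest probe sets, 7 genes had a positive difference and 2 a negative one, with a median log2 difference of 0.18 and a median of 0.01 over all probe sets tested. Of all probe sets tested, 52.4% had a positive difference. The SE of a log2 difference was typically 0.11 over both sexes and 0.16 within a sex. The lowest and highest signals of Hyp and normal arrays overlapped within each sex in all 23 tested member probe sets, whereas groups that did not overlap were seen in 2.53% of all probe sets in males and 1.83% in females.

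**Figure D1:**
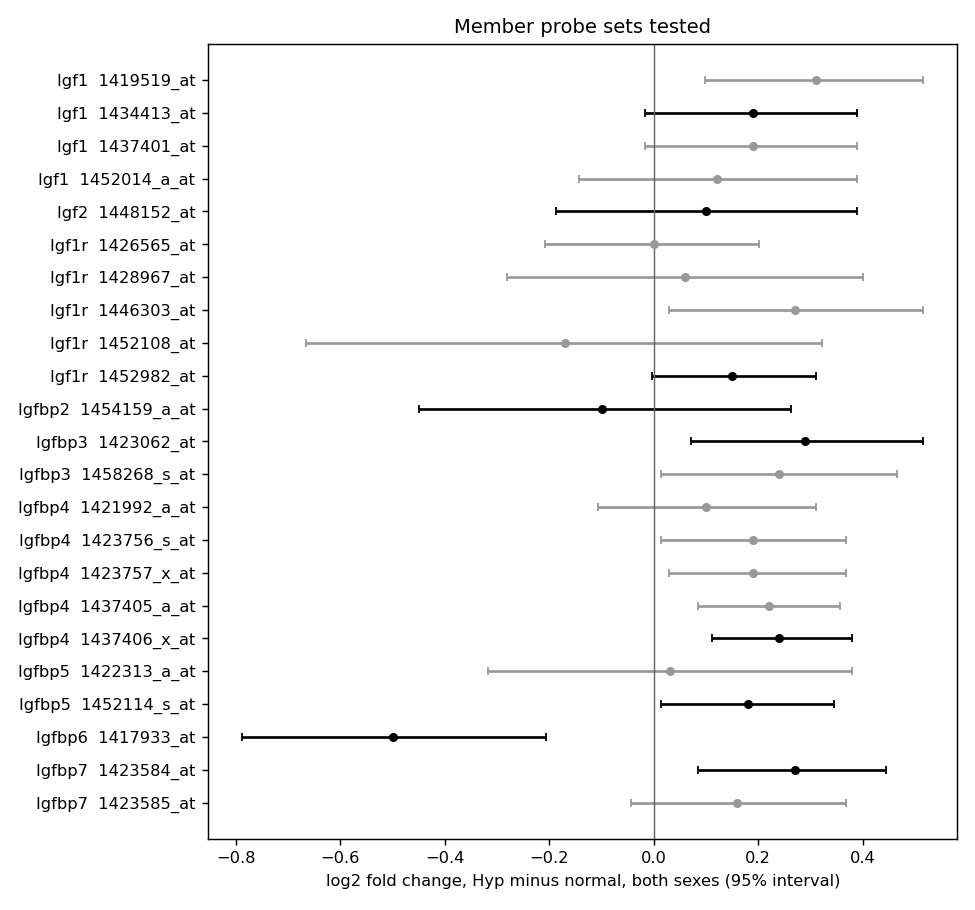
Log2 difference of Hyp minus normal over both sexes (x axis) with its 95% interval for each of the 23 tested member probe sets, named by gene and probe set on the y axis. Black marks the brightest probe set of each gene and grey the others. Of the 23, 19 lie above 0 and 4 below, against 52.4% above 0 among all probe sets tested, and none of the 23 passed the adjusted threshold.

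Igf1 encodes the main postnatal growth factor of the family. Its brightest probe set (1434413_at) read 5863.3, 8291.4, 5134.2, 5849.3 and 5311.5 in normal males of series 1 to 5 and 5042.6, 5640.0, 7007.4, 7194.6 and 5586.9 in Hyp males. In females the normal arrays read 4158.0, 5180.9, 4836.9, 5886.3 and 3131.9 and the Hyp arrays 5248.0, 6537.5, 6767.9, 6595.0 and 4435.0. The male groups overlapped widely, with 3 of 5 pairs higher in Hyp, whereas all 5 female pairs were higher in Hyp although the group ranges overlapped. Means were 6089.9 ± 1270.0 and 6094.3 ± 951.0 (SD, n = 5) in normal and Hyp males, and 4638.8 ± 1050.0 and 5916.7 ± 1030.0 (SD, n = 5) in normal and Hyp females.

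The fitted log2 difference of Igf1 was 0.19 ± 0.10 (SE) over both sexes, a fold of 1.14 with a 95% interval of 0.988 to 1.31, and it did not pass (limma adjusted p = 0.291). It was 0.01 ± 0.14 in males and 0.36 ± 0.14 in females (adjusted p = 0.978 and 0.372), and the test of whether the sexes differed gave an unadjusted limma p of 0.0838 and an adjusted p of 0.76. The male value turned negative, at -0.02, when arrays were centred on their median. The other 3 probe sets for Igf1 followed the brightest with Pearson r of 0.97, 0.89 and 0.68 over the 20 arrays after series means were removed, and were positive in 8, 9 and 6 of 10 pairs. The dimmer probe set 1419519_at had the largest Igf1 difference, 0.31 ± 0.10, with an adjusted p of 0.097. No probe set separated normal from Hyp arrays in either sex.

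Igf1 was also the only member with an unadjusted p under 0.05 between the sexes. The female minus male difference was -0.22 ± 0.10 on the log2 scale (limma adjusted p = 0.315), and females were higher in 3 of 10 same-series comparisons. Among the 23 member probe sets 0 passed for sex in limma and 3, all for Igf1, had an unadjusted p under 0.05, all lower in females. Of all probe sets 0.133% passed, and 13.9% had an unadjusted p under 0.05, 7.93% being lower in females. At an unadjusted limma p under 0.05, 5 of 5 neutrophil markers (list median -0.49), 3 of 3 erythroid markers (-0.71) and 2 of 4 marrow stroma markers (-0.20) were lower in females too, and 0 of them passed. Their part in the Igf1 value was not tested. By the authors' deposited table, 4 of 26 member probe sets had a sex P class below 0.05, 3 of them for Igf1 and 1 for Igfbp4, against 10.7% of all probe sets. That share covers all 45101 probe sets, tested here or not.

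Igf2, a growth factor expressed most strongly before birth, was read by 1448152_at. Normal males gave 3561.4, 5077.9, 2465.3, 3849.4 and 2207.8 and Hyp males 2463.6, 3368.6, 3499.1, 3565.3 and 3452.5. Normal females gave 3565.5, 2739.7, 2228.9, 2983.5 and 1527.4 and Hyp females 3130.5, 3299.6, 2437.0, 3005.8 and 2814.3. The normal arrays spanned a wider range than the Hyp arrays in both sexes and enclosed every Hyp value. The difference over both sexes was 0.10 ± 0.14 (SE; limma adjusted p = 0.728), a fold of 1.07 with an interval of 0.878 to 1.31, and 6 of 10 pairs were higher in Hyp. The untested Igf2 probe set was not called present on any array, with signals of 6.5 to 100.4.

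Igf1r, the receptor kinase that binds both growth factors, was read by 5 tested probe sets. The brightest, 1452982_at, gave 1761.8, 1827.1, 1097.3, 1324.8 and 1074.0 in normal males and 1893.7, 1795.4, 1555.1, 1713.4 and 1380.0 in Hyp males. It gave 1885.2, 2157.8, 1190.5, 1374.5 and 1114.0 in normal females and 2047.7, 1795.0, 1370.7, 1304.6 and 1328.4 in Hyp females. The arrays of series 1 and 2 were the brightest in each group. The difference was 0.15 ± 0.07 (SE; limma adjusted p = 0.262), with 4 of 5 male pairs and 3 of 5 female pairs higher in Hyp. The other 4 probe sets gave -0.17 to 0.27, and their correlation with the brightest ran from -0.28 to 0.45, so the Igf1r probe sets did not move together. Of these, 1452108_at was present on 6 arrays and 1446303_at on 19.

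**Figure D2:**
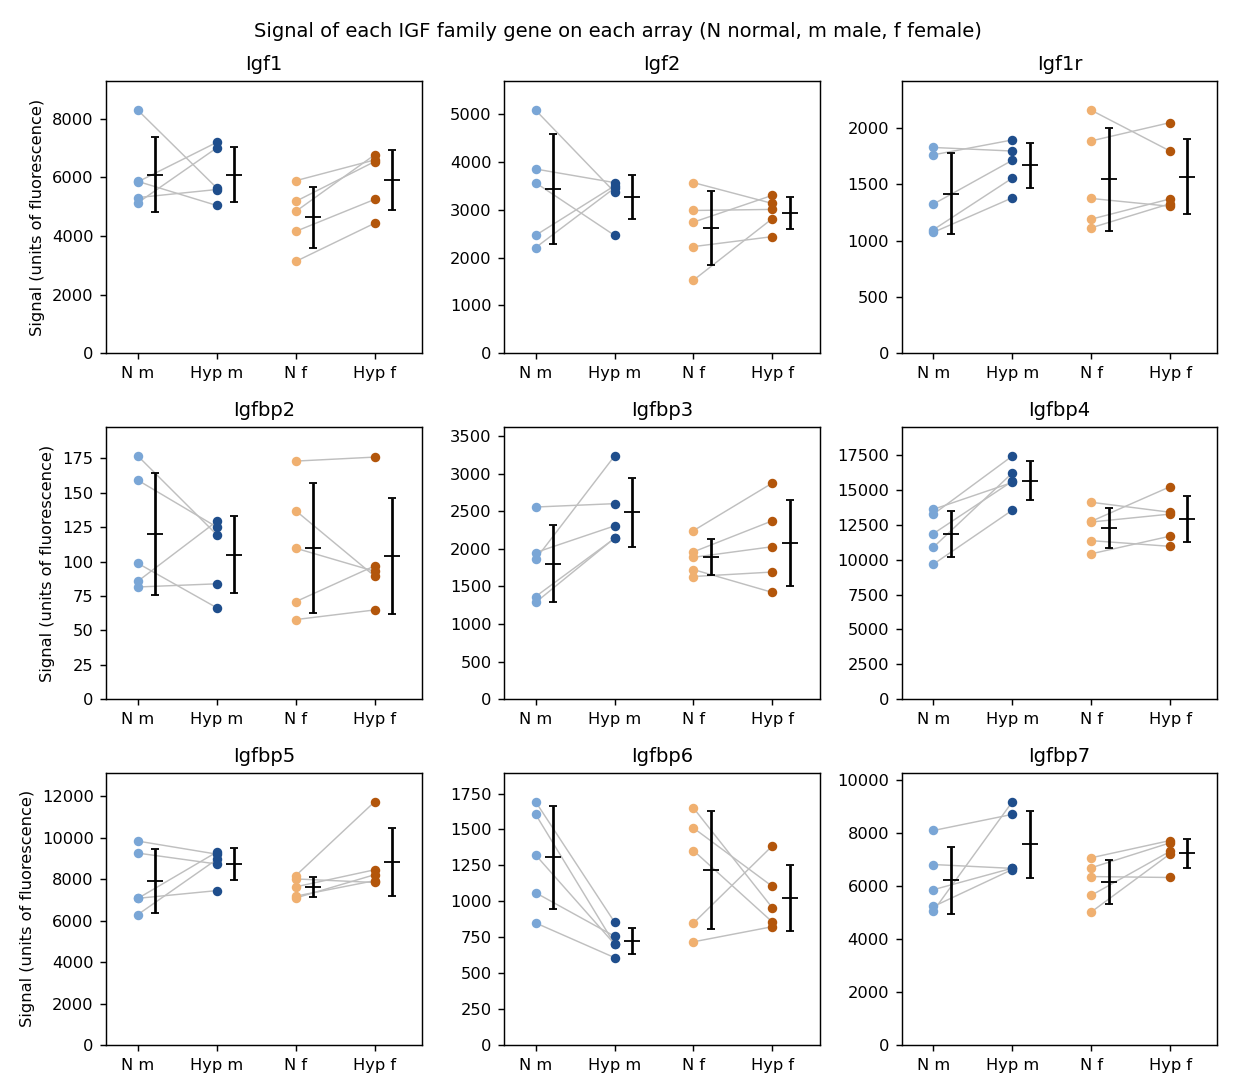
Signal in units of fluorescence (y axis, from 0) on each of the 20 arrays for the brightest probe set of each of the 9 genes, by group (N normal, m male, f female). Points are arrays, grey lines join the arrays of a series, and black marks give the mean and SD of 5 arrays. In Igfbp3 and Igfbp4 all 5 male lines climb and in Igfbp6 all 5 fall, while the female lines of these genes are mixed.

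Igfbp4 encodes a binding protein that inhibits IGF action and is cut by the protease pregnancy-associated plasma protein A. Its brightest probe set (1437406_x_at) read 13278.1, 11880.9, 10905.4, 9688.2 and 13625.9 in normal males and 17452.7, 15643.7, 16233.3, 13565.0 and 15555.2 in Hyp males. In females it read 12762.2, 11375.6, 12715.0, 10430.6 and 14131.4 in normal mice and 15249.5, 10967.7, 13282.2, 11699.1 and 13414.6 in Hyp mice. Every male pair was higher in Hyp, and the male groups overlapped by 1 array on each side: the Hyp array of series 4 lay below the normal array of series 5. The female groups overlapped over most of their range, with 3 of 5 pairs higher in Hyp.

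Mean Igfbp4 signals were 11875.7 ± 1640.0 in normal and 15690.0 ± 1410.0 in Hyp males, and 12283.0 ± 1420.0 in normal and 12922.6 ± 1670.0 in Hyp females (SD, n = 5 each). The difference over both sexes was 0.24 ± 0.06 (SE), a fold of 1.18 with a 95% interval of 1.08 to 1.30, at a limma adjusted p of 0.0574. It was 0.41 ± 0.09 in males (adjusted p = 0.0683) and 0.07 ± 0.09 in females (adjusted p = 0.84). The difference between the sexes was 0.34 ± 0.13, with an unadjusted limma p of 0.018 and an adjusted p of 0.751. Over both sexes this probe set passed in 4 of 37 alternatives and did not pass in 33. It passed when only probe sets present on all 20 arrays were tested (adjusted p = 0.0306, with 6.93% of all probe sets passing) and with array weights (0.0306, with 5.27% passing). It also passed without the Hyp male array of series 5 (0.0463, with 787 of all 27141 probe sets passing) and in the analysis of variance on linear signals.

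The other 4 tested Igfbp4 probe sets gave differences of 0.10 to 0.22 over both sexes, and each was higher in Hyp in all 5 male pairs and in 2 or 3 female pairs. Their correlations with the brightest ran from 0.62 to 0.96. Probe sets whose names end in _x_at or _s_at can also bind related transcripts, whereas the suffix _a_at stands for transcripts of 1 gene. Of those tested with that suffix, 1437405_a_at gave 0.22 ± 0.07 (limma adjusted p = 0.081) and 1421992_a_at gave 0.10 ± 0.10 (adjusted p = 0.598). Within males and females, 1437405_a_at gave 0.34 ± 0.09 and 0.09 ± 0.09, and 1421992_a_at gave 0.33 ± 0.14 and -0.12 ± 0.14. In the authors' deposited table, 1437406_x_at has a ratio of Hyp to normal of 1.18, an F of 32.1 for genotype with a P class below 0.001, and an F of 16.3 for the interaction of genotype and sex with a P class below 0.0025. All 5 member probe sets with an interaction P class below 0.05 in the authors' deposited table were for Igfbp4, against 5.94% of all probe sets. That share covers all 45101 probe sets, tested here or not, and the P classes were not adjusted for the number of probe sets.

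Igfbp6, a binding protein that prefers IGF2 over IGF1, was the member with the largest difference among the 9 brightest probe sets. Its single probe set (1417933_at) read 1322.1, 1692.3, 1604.6, 1059.1 and 849.0 in normal males and 702.1, 854.8, 702.1, 756.4 and 607.6 in Hyp males. In females it read 1509.9, 847.8, 1353.0, 1649.5 and 717.6 in normal mice and 1103.6, 1385.7, 855.7, 954.6 and 822.9 in Hyp mice. All 5 male pairs were lower in Hyp, and the male groups touched at 1 value each, the normal array of series 5 and the Hyp array of series 2. In females 3 pairs were lower and 2 higher, and the groups overlapped.

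Mean Igfbp6 signals were 1305.4 ± 357.0 in normal and 725.0 ± 90.4 in Hyp males, and 1215.6 ± 411.0 in normal and 1024.5 ± 230.0 in Hyp females (SD, n = 5 each). The log2 difference was -0.50 ± 0.14 (SE) over both sexes, a fold of 0.708 with a 95% interval of 0.579 to 0.867, at a limma adjusted p of 0.0639. It was -0.80 ± 0.19 in males (limma adjusted p = 0.0882) and -0.20 ± 0.19 in females (adjusted p = 0.782). The difference between the sexes was -0.60 ± 0.27, with an unadjusted limma p of 0.044 and an adjusted p of 0.751. Igfbp6 passed over both sexes in 3 of 37 alternatives and did not pass in 34. Without the normal female array of series 2, the value over both sexes was -0.60 with an adjusted p of 0.0257, and 392 of all 27141 probe sets passed. With a pseudocount of 64 it was -0.48 with an adjusted p of 0.0477 and 3.35% of all probe sets passing. The authors' deposited table gives a ratio of 0.694 and a genotype F of 9.88 with a P class below 0.01. Its F for the interaction of genotype and sex was 2.52, which was not classed as significant there.

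Control ratios that are read as a sign of RNA integrity, which was not itself measured here, moved with genotype beside these values. The 3′ to 5′ signal ratio of the actin control was higher in Hyp in 9 of 10 pairs, by 0.14 ± 0.0869 (SD, n = 10 pairs) on the log2 scale, and that of the Gapdh control was higher in 8 of 10 pairs, by 0.06 ± 0.165. With the actin ratio as a covariate, the difference over both sexes was -0.21 for Igfbp6, 0.12 for Igfbp3, 0.14 for Igfbp7 and 0.04 for Igfbp5, and it was 0.27 for Igfbp4. The limma adjusted p was 0.355 for Igfbp4 and higher for the others in that fit, in which 1 probe set of all 27141 passed. The median SE over all probe sets was 0.20 in that fit and 0.11 without the covariate, so precision was lower too.

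Igfbp3 carries most IGF in the circulation. Its brightest probe set (1423062_at) read 1950.2, 1286.5, 1364.5, 2555.6 and 1862.7 in normal males and 2304.6, 2141.2, 2138.0, 2600.3 and 3234.3 in Hyp males. The female arrays read 1631.0, 1723.5, 1958.9, 2241.3 and 1886.6 in normal mice and 1690.6, 1420.0, 2372.1, 2874.5 and 2027.7 in Hyp mice. The pairs were higher in Hyp in 5 of 5 males and 4 of 5 females, and the groups overlapped in both sexes. The log2 difference was 0.29 ± 0.10 (SE) over both sexes, a fold of 1.23 with an interval of 1.05 to 1.43 (limma adjusted p = 0.131). It was 0.48 ± 0.15 in males (adjusted p = 0.118) and 0.10 ± 0.15 in females (adjusted p = 0.869). The second probe set gave 0.24 ± 0.11 and correlated with the first at 0.88.

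Igfbp7 binds IGFs weakly and is abundant in vessel walls. Its brightest probe set (1423584_at) read 8096.3, 6811.4, 5226.5, 5860.6 and 5059.2 in normal males and 8704.6, 6665.6, 6623.4, 6673.4 and 9179.5 in Hyp males. In females it read 7065.9, 6688.2, 5018.6, 5647.0 and 6356.5 in normal mice and 7717.4, 7630.3, 7215.1, 7311.9 and 6321.9 in Hyp mice. The pairs were higher in Hyp in 4 of 5 in each sex, with overlapping groups. The difference was 0.27 ± 0.09 (SE), a fold of 1.20 with an interval of 1.06 to 1.36 (limma adjusted p = 0.10). The dimmer tested probe set gave 0.16 ± 0.10 and correlated with the first at only 0.32.

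Igfbp5 is a binding protein that osteoblasts make in quantity and that binds to bone mineral and matrix. Its brightest probe set (1452114_s_at) read 9265.0, 9845.8, 6297.0, 7081.6 and 7078.0 in normal males and 8739.5, 9215.0, 8962.3, 7453.6 and 9314.2 in Hyp males. Among females, arrays read 7634.9, 8171.7, 7097.1, 7185.6 and 8017.6 in normal mice and 8459.6, 11743.6, 8220.4, 7934.2 and 7847.8 in Hyp mice. In males 3 and in females 4 pairs were higher in Hyp, and the groups overlapped. The difference was 0.18 ± 0.08 (SE; limma adjusted p = 0.204), a fold of 1.13 with an interval of 1.01 to 1.27, and the second probe set gave 0.03 ± 0.16.

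Igfbp2, a binding protein of serum and of several tissues, had the lowest detection of the 9 genes. Its single probe set (1454159_a_at) was called present on 5 of 5 normal male, 1 of 5 Hyp male, 2 of 5 normal female and 3 of 5 Hyp female arrays. Signals were 176.7, 159.1, 81.5, 98.7 and 85.7 in normal males and 119.5, 125.1, 83.8, 66.4 and 129.2 in Hyp males. Normal females gave 70.8, 109.7, 57.8, 137.0 and 173.0 and Hyp females 96.8, 92.9, 64.8, 89.4 and 175.9. The groups overlapped in both sexes, and 5 of 10 pairs were higher in Hyp. The difference was -0.10 ± 0.17 (SE; limma adjusted p = 0.795), with an interval for the fold of 0.732 to 1.20.

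**Figure D3:**
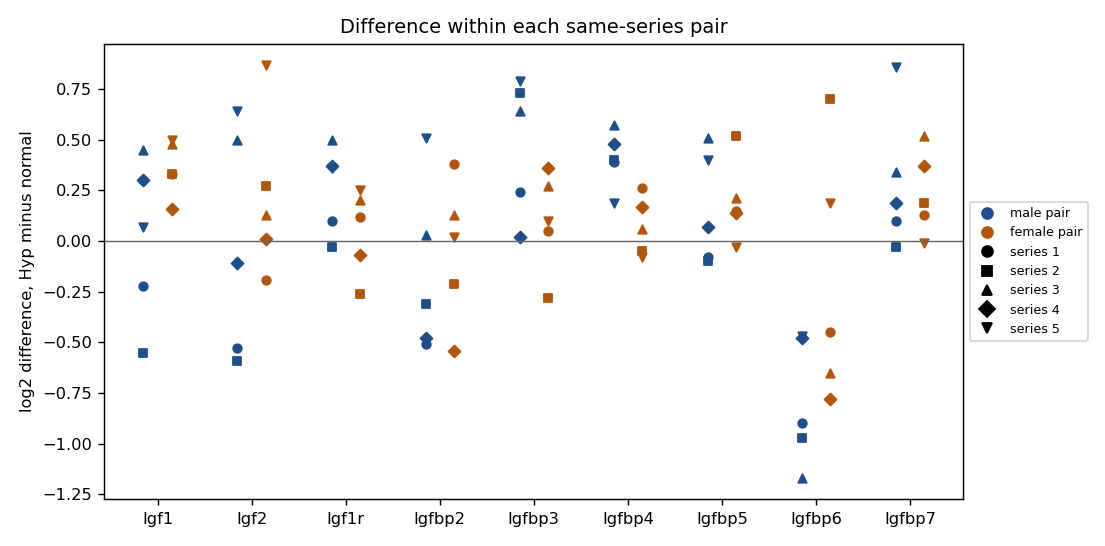
Log2 difference of Hyp minus normal (y axis) within each of the 10 pairs for the brightest probe set of each gene, with sex by colour and series by marker. Igfbp3 and Igfbp4 lie above 0 and Igfbp6 below 0 in all 5 male pairs, Igf1 lies above 0 in all 5 female pairs, and Igf2 and Igfbp2 lie on both sides.

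Within males 0 of 23 member probe sets passed in limma, 8 were higher and 1 lower at an unadjusted p under 0.05, and 27 of all probe sets passed, or 0.0995%. At an unadjusted p under 0.05 were 17.9% of all probe sets, 10.3% higher and 7.65% lower. Within females 0 passed, 3 were higher and 0 lower at an unadjusted p under 0.05, all 3 for Igf1, while 1 of all probe sets passed, or 0.00368%, with 10.1% at an unadjusted p under 0.05, 4.82% being higher. The interaction of genotype and sex gave 0 passing members, and 4 at an unadjusted p under 0.05, namely 3 probe sets for Igfbp4 with a more positive and that for Igfbp6 with a more negative genotype difference in males. Of all probe sets 0.00368% passed, and 6.62% had an unadjusted p under 0.05, 3.31% higher and 3.32% lower. No difference between the sexes therefore passed for any member. The analysis of variance on linear signals, adjusted alike, called 2 member probe sets in males, both for Igfbp4, and 0.556% of all probe sets.

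Levels of several members also differed between series. In the authors' deposited table, 12 of 26 member probe sets had a block P class below 0.05, against 16.9% of all probe sets, and 11 had a genotype P class below 0.05, against 14.8%. Those shares are over all 45101 probe sets, of which 27141 passed the present-call filter. Among the 26 member probe sets 23 passed it, so the 2 sets are unlike in detection. The brightest Igf1r probe set read 1895.5 ± 139.0 (SD, n = 8 arrays) in series 1 and 2 and 1318.9 ± 188.0 (SD, n = 12 arrays) in series 3 to 5. The mean Igf1 pair difference was -0.03 ± 0.434 (SD, n = 4 pairs) in series 1 and 2 with 2 of 4 pairs higher in Hyp, and 0.33 ± 0.181 (SD, n = 6 pairs) in series 3 to 5 with 6 of 6 higher. Igf2 differed by -0.26 ± 0.395 in series 1 and 2 and 0.34 ± 0.388 in series 3 to 5, and Igf1r by -0.02 ± 0.175 and 0.27 ± 0.196. Igfbp4 gave 0.25 ± 0.21 and 0.23 ± 0.248, and Igfbp6 gave -0.41 ± 0.772 and -0.56 ± 0.448. The difference between the 2 sets of series was not tested.

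Genes with the most similar profile were found by Pearson r over the 20 arrays after the mean of each series was removed. This takes out the level that the arrays of a series share. Igfbp7 was closest to Podxl (0.934), Sox18 (0.908) and Tril (0.901), of which Podxl and Sox18 are known from vessel endothelium. Igfbp3 was closest to Sema3g (0.885), Plvap (0.867) and Gja4 (0.864), which vessels express too, and Igfbp4 to Stab1 (0.941), a scavenger receptor of sinusoidal endothelium and macrophages, Acin1 (0.885) and Stk10 (0.884). Of these 9 genes, Podxl, Sox18, Plvap, Gja4 and Stab1 rose in Hyp mice over both sexes (limma adjusted p of 0.0109 to 0.0445), and Sema3g did not pass at 0.0509, while 1.08% of all probe sets rose. The genes were chosen for likeness over arrays that include the genotype difference, so their direction partly follows from that choice and is a description. Among the other 3 binding proteins, Igfbp6 was closest to Plekhb2 (0.909), Timm8b (0.887) and Cops2 (0.877), Igfbp5 to Ern1 (0.863), Grip2 (0.847) and Dlc1 (0.799), and Igfbp2 to Men1 (0.807), Lama4 (0.733) and 1700037C18Rik (0.731). Timm8b, a mitochondrial import protein, fell in Hyp mice by 0.37 on the log2 scale (limma adjusted p = 0.0495), while 1.3% of all probe sets fell. It was chosen by likeness to Igfbp6 in the same way.

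The growth factors had other neighbours. Igf1 was closest to Palld (0.895), Ptn (0.875) and Cald1 (0.862), of which Palld and Cald1 encode actin-associated proteins and Ptn a heparin-binding growth factor. Igf2 was closest to Ankrd29 (0.907), Meg3 (0.825), an imprinted noncoding RNA, and P4ha3 (0.82), a collagen prolyl hydroxylase. Igf1r was closest to Sned1 (0.878), Lrrc45 (0.816) and Pou6f1 (0.811). None of these 9 genes passed the test of Hyp against normal, with adjusted p values of 0.0803 to 0.997.

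Among the 9 genes themselves, Igfbp5 and Igfbp7 were most alike (r = 0.78), followed by Igf1 with Igf2 and Igfbp3 with Igfbp7 (both 0.68) and Igfbp3 with Igfbp4 (0.66). Igfbp6 ran opposite to Igfbp4 (-0.78), Igfbp3 (-0.76) and Igf1r (-0.61). These values describe the 20 arrays, which include the genotype difference itself, and they carry no test.

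**Figure D4:**
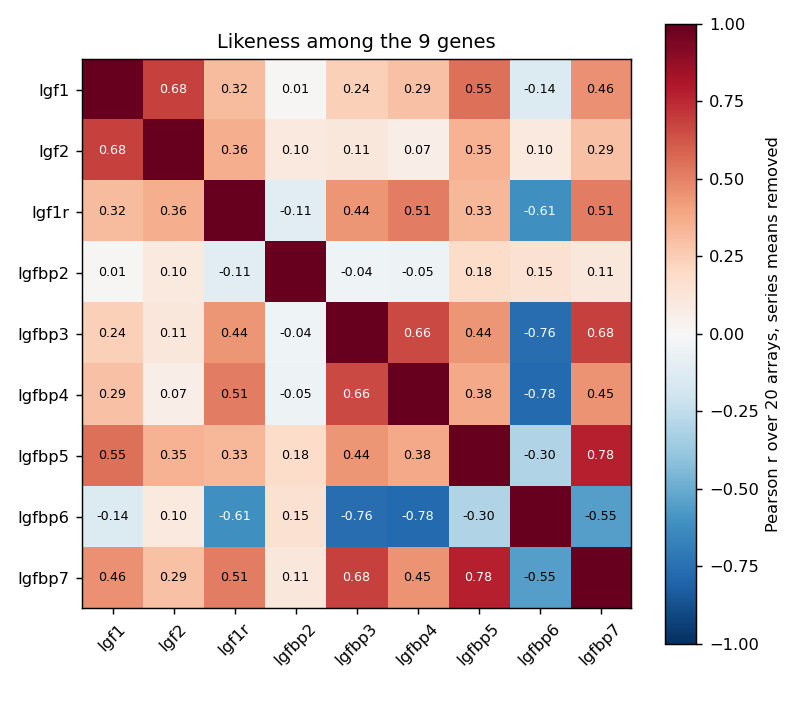
Pearson r between the brightest probe sets of the 9 genes over 20 arrays after series means were removed (colour from -1 to 1, values printed in the cells). Igfbp6 is negative against Igfbp3, Igfbp4 and Igf1r, and Igfbp2 lies between -0.11 and 0.18 with every other gene.

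Of 8 endothelial markers, all present on all 20 arrays, Pecam1, Flt1 and Cldn5 rose over both sexes (limma adjusted p of 0.0175 to 0.0417), while 1.08% of all probe sets rose. The other 5 did not pass, with differences of 0.28 to 0.45 and adjusted p values of 0.0648 to 0.329. The list's median log2 difference was 0.43, beside the values of Igfbp3, Igfbp4 and Igfbp7 above. The summed signal of the endothelial markers was 6935.7 to 9408.0 in normal males, 10279.9 to 13846.7 in Hyp males, 6910.2 to 10162.9 in normal females and 9664.0 to 13205.4 in Hyp females. Of 4 marrow stroma markers tested, the chemokine gene Cxcl12 and the stem cell factor gene Kitl rose, and the summed signal was 10261.0 to 13285.0 in normal males, 12619.2 to 17773.2 in Hyp males, 9713.8 to 10645.1 in normal females and 10438.2 to 14740.0 in Hyp females. Of 7 tendon and fibrous tissue markers 0 passed in limma and 0 had an unadjusted p under 0.05, with a median of -0.09 and a summed signal of 19861.9 to 38169.6, 22098.0 to 29122.8, 22437.4 to 31349.4 and 23752.1 to 34302.4 in the same order of groups. In the cartilage, skeletal muscle, adipocyte, macrophage, erythroid, neutrophil and B lymphocyte lists 0 markers passed over both sexes in limma, and 0, 0, 0, 1, 2, 0 and 2 had an unadjusted p under 0.05. That threshold was met by 20.2% of all probe sets over both sexes. The skeletal muscle list had a median of -0.12 within males and 0.28 within females. At an unadjusted limma p under 0.05, 2 of its 7 markers were higher in Hyp females, against 4.82% of all probe sets, and 0 differed in males. For the interaction 3 of the 7 were lower at that threshold, against 3.32% of all probe sets, and 0 passed. Within males the 3 erythroid markers tested, Alas2, Slc4a1 and Epb42, gave 0.80, 0.73 and 0.89, each with an unadjusted limma p under 0.05 and none passing (adjusted p of 0.11 to 0.143). Of all probe sets, 10.3% were higher within males at that unadjusted threshold. Within females the 3 erythroid markers gave 0.10, 0.23 and -0.08. The summed erythroid signal was 8652.9 to 22768.8 in normal males, 20987.1 to 37502.0 in Hyp males, 9639.3 to 15418.9 in normal females and 11522.2 to 17063.2 in Hyp females. The part of these cell types in the members' values, those within each sex included, was not tested.

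The rest of the pathway was read from a list of 66 genes, of which 57 had a probe set of their own and 49 were tested. None rose and 2 fell over both sexes, Irs1 and Grb14, and at an unadjusted limma p under 0.05 there were 1 higher and 6 lower. Of all probe sets 1.08% rose and 1.3% fell, and 11.5% were higher and 8.73% lower at an unadjusted p under 0.05. The median of the 49 was -0.04, against 0.01 over all probe sets tested. Both genes that fell encode adaptors of the IGF1 and insulin receptors.

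Irs1 encodes insulin receptor substrate 1, the docking protein that passes the receptor's signal to phosphatidylinositol 3-kinase. Its probe set (1423104_at) read 8150.9, 8429.4, 6727.4, 5679.4 and 5933.7 in normal males and 3871.3, 4978.5, 4815.7, 5073.2 and 4260.8 in Hyp males. In females it read 6083.7, 8687.9, 6015.8, 6426.0 and 6972.8 in normal mice and 5555.6, 6449.5, 5108.9, 5050.6 and 4786.5 in Hyp mice. All 10 pairs were lower in Hyp, which held for 1.04% of all probe sets. The male groups did not overlap, which held for 2.53% of all probe sets, and the female groups overlapped. The log2 difference was -0.46 ± 0.08 (SE), a fold of 0.725 with a 95% interval of 0.643 to 0.819 (limma adjusted p = 0.0116). It was -0.59 ± 0.12 in males (adjusted p = 0.0557) and -0.34 ± 0.12 in females (adjusted p = 0.327). The call was lost without series 2 (-0.43, adjusted p = 0.0949), series 4 (-0.52, 0.0658) or series 5 (-0.45, 0.0577), and when the actin ratio was a covariate (-0.47, 0.248).

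Grb14 encodes an adaptor that binds the activated insulin receptor and inhibits it. The brighter probe set (1417673_at) read 1217.0, 975.6, 1021.4, 1291.8 and 1523.3 in normal males and 769.1, 623.4, 1041.9, 1220.6 and 1129.9 in Hyp males. Among females it read 985.4, 896.0, 1273.3, 1043.8 and 1251.0 in normal mice and 680.2, 674.2, 921.5, 981.4 and 1079.4 in Hyp mice. In 9 of 10 pairs the Hyp array was lower, and 4.49% of all probe sets were lower in at least 9 pairs. The groups overlapped in both sexes. The difference was -0.34 ± 0.08 (SE; limma adjusted p = 0.0449), a fold of 0.788 with an interval of 0.695 to 0.892. Over 25 fits that left out a series or an array the difference ranged from -0.41 to -0.28. Calls among all probe sets went from 647 to 147, 30, 20 and 129 without series 1, 2, 4 and 5. The call for Grb14 was lost in 21 of the 25 fits, and kept without series 3, the normal male array of series 3, the Hyp male array of series 4 or the normal female array of series 4. It was also lost with the actin ratio as a covariate (-0.55, adjusted p = 0.184) and without the series block (-0.34, adjusted p = 0.207). A dimmer Grb14 probe set, present on 8 arrays, gave 0.19 ± 0.34.

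**Figure D5:**
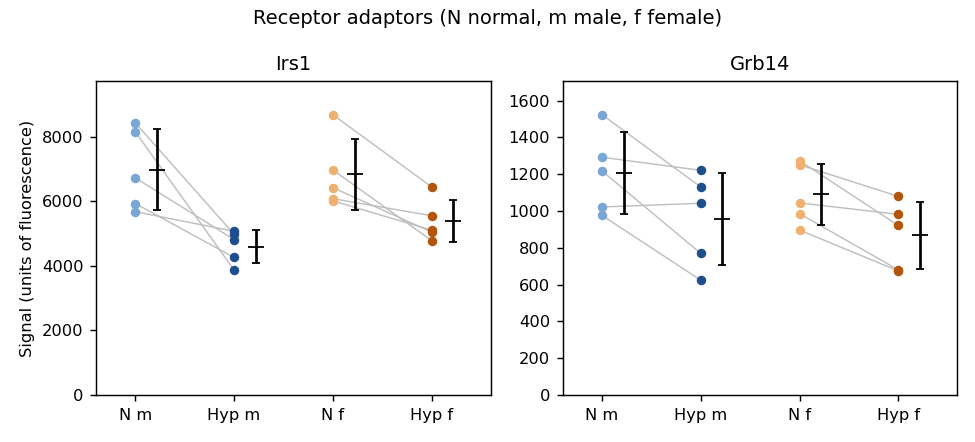
Signal in units of fluorescence (y axis, from 0) of Irs1 and Grb14 on each of the 20 arrays by group (N normal, m male, f female), with grey lines joining arrays of a series and black marks for the mean and SD of 5 arrays. Every Irs1 line falls from normal to Hyp, and 9 of 10 Grb14 lines do.

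By role, 0 of 7 tested genes of the endocrine axis passed, and 0 of these 7 had an unadjusted limma p under 0.05. The growth hormone receptor Ghr gave -0.04 ± 0.09 over both sexes, made up of -0.32 ± 0.13 in males and 0.23 ± 0.13 in females (limma adjusted p = 0.208 and 0.571). Its difference between the sexes was -0.55 ± 0.18, with an unadjusted limma p of 0.00804 and an adjusted p of 0.751. Socs2, which damps the receptor's signal, gave -0.23 ± 0.11 over both sexes (adjusted p = 0.262). Of 12 other binding proteins, proteases and inhibitors tested, 0 passed and 3 were lower at an unadjusted p under 0.05. These were the metalloproteases Adam12 (-0.27 ± 0.11) and Adam9 (-0.15 ± 0.07), and Lrp1, an endocytic receptor (-0.28 ± 0.10, adjusted p = 0.125). The Igfbp4 protease Pappa gave -0.09 ± 0.12 and its inhibitors Stc1 and Stc2 gave 0.09 ± 0.12 and -0.10 ± 0.16.

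Of 10 other receptors and adaptors tested, Irs1 and Grb14 fell and Grb2 was lower at an unadjusted p under 0.05 (-0.16 ± 0.06, adjusted p = 0.175). Igf2r, which clears IGF2, gave 0.03 ± 0.09, and the insulin receptor Insr 0.15 ± 0.09. Of 18 signal relay genes tested, 0 passed and 1 had an unadjusted p under 0.05, the transcription factor Foxo3 (0.27 ± 0.12, adjusted p = 0.226). The kinases Akt1, Akt2 and Mtor gave 0.03 ± 0.08, -0.16 ± 0.08 and -0.01 ± 0.08. Of the regulators of Igf2 RNA, Igf2bp3 and Hmga2 were tested and gave 0.06 ± 0.16 and 0.11 ± 0.11, with 0 unadjusted p values under 0.05. Igfbp1 and Igfals, which the liver makes for the circulation, were on the array and called present too rarely to be tested.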

How the data were processed

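Total RNA of the shafts, extracted with TRIzol per the labels' protocols, was measured on 20 Affymetrix arrays. Signal intensities were deposited by the authors as linear fluorescence units, per the file headers; GCOS is the tool named in the submitters' processing notes, and its version, settings and scaling target are not given in the sources used here. The authors' deposited table adds the ratio of Hyp to normal group means, an F score for each term of their blocked analysis of variance, its P class, and a detection call per signal. Those F statistics were recomputed from the signals with a largest relative difference of 4.36e-07. No background correction or normalization was added, and arrays have no count depth; their number limits the precision.

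Probe sets were named from the platform's gene table: 34958 have 1 symbol, 932 several and 9211 none, and 0 symbols changed through RefSeq gene identifiers of GRCm38.p6. Signals were analysed as log2(signal + 16), so a fold is on that scale and understates changes of dim probe sets. Control probe sets (64) and those present on fewer than 5 arrays were left out. One limma 3.58.1 model (lmFit and eBayes, R 4.3.3) fitted the 4 groups with series as a block, with 12 residual and 3.44 prior degrees of freedom. P was 2-sided, adjusted by Benjamini and Hochberg over 27141 probe sets, threshold 0.05. The model was tested on simulated data.

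The block comes from the labels, which match the arrays of a replicate by litter and parallel processing. Across genes, deviations from the group means of the 30 same-series pairs of arrays correlated at -0.0288 to 0.418 (median 0.215, against -0.0698 for other pairs). Arrays of a group came from different mice, so the spread between them is biological and technical.

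The 9 genes, the pathway list and the marker lists were chosen with earlier results of these data known. Of the pathway list, genes that passed over both sexes are given in full, and for each member the 3 most alike genes are named; genes with an unadjusted p under 0.05 and a few genes of known role were named after their values were seen. List members without a probe set carrying their symbol alone are not analysed here. Alternatives covered pseudocount, present-call filter, scaling, block, array weights, the actin ratio, sets of series, left-out arrays and the authors' form of test. Sequences and coordinates were not used.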

Additional observations from a re-analysis of the deposited data

Results flagged for a closer look

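In the brightest probe sets of the 9 genes, 36 groups of 5 arrays were checked for an array whose distance from its nearest neighbour exceeded 0.71 of the group's range, a criterion that chance meets in about 1 of 20 groups, and 4 groups met it. Igf1 in normal males had its highest signal in replicate 2, 8291.4, with the next at 5863.3. Igf2 in Hyp males had its lowest signal in replicate 1, 2463.6, with the next at 3368.6. Igfbp5 had its lowest Hyp male signal in replicate 4, 7453.6, with the next at 8739.5, and its highest Hyp female signal in replicate 2, 11743.6, with the next at 8459.6.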

How the results depend on the processing

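Of 26 single-gene values, each refitted under up to 37 alternatives, 19 kept their sign in all of them. The count of member probe sets called over both sexes, 0 as reported, was 1 with a pseudocount of 64 (Igfbp6), 3 among probe sets present on all 20 arrays (2 for Igfbp4 and 1 for Igfbp6), 2 with array weights and 2 by the analysis of variance on linear signals (all Igfbp4), and 0 to 1 when single series or arrays were omitted. All probe sets called were 909 (3.35%), 1226 of 17691 (6.93%), 1431 (5.27%) and 882 (3.25%) in those 4 settings. Within males the count was 2 among probe sets present on all 20 arrays and 2 by the analysis of variance. The latter called 0.556% of all probe sets within males. The male share of all probe sets for the former is not given here, so its 2 calls cannot be set against a background. The count stayed at 0 in females, for the interaction and for sex in every alternative run. Without the replicate block it was 0 in all 5 comparisons, and the pathway count over both sexes went from 2 to 1, as Grb14 was lost (-0.34, adjusted p = 0.207). That pathway count was also 1 with no present-call filter, 0 with the actin ratio as a covariate, 0 in series 1 and 2 alone, 0 in series 3 to 5 alone (with 1, 0 and 1 of all 27141 probe sets called in these last 3 settings), and 0 to 3 when single series or arrays were omitted (3 without the normal male array of series 3, which added Lrp1). The call for Irs1 held in 31 of 37 alternatives and that for Grb14 in 11, and both differences stayed negative in all 37 (-0.60 to -0.37 and -0.55 to -0.21). Signs turned in series 1 and 2 alone for Igf1 (-0.03), Igf2 (-0.26) and Igf1r (-0.02) over both sexes, Igf1 in males (-0.39), Igfbp3 in females (-0.11) and Igfbp6 in females (0.13). With the actin ratio they turned for Igfbp2 over both sexes (0.08), Igf1 in males (-0.07), Igfbp3 in females (-0.03) and Igfbp6 in females (0.03), and with median centring for Igf1 in males (-0.02). When single series or arrays were omitted, the ranges were -0.06 to 0.22 for Igf2 and -0.21 to 0.01 for Igfbp2 over both sexes, and -0.10 to 0.15 for Igf1 in males. The causes were not tested. Igfbp2 was near the detection limit, present on 11 arrays, and had no value among probe sets present on all 20.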
